A study of Sus scrofa with 11 samples.

Results

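The endothelial genes described here are 8 listed symbols, PECAM1, CDH5, TEK, TIE1, KDR, FLT1, VWF and CGNL1, which were looked up among the 25880 pig gene identifiers of the count tables. Of the 8 symbols, 7 were matched, and all 7 were among the 15348 genes with enough counts to be tested. VWF was not matched to an identifier and is not analysed here. The counts came from bulk RNA sequencing of porcine coronary arteries in 11 libraries. Native arteries (native, n = 2) were not cultured. The other vessels were kept in a bioreactor, with a stent and without flow (stented static, n = 2), with a stent under flow marked ++ (stented high-flow, n = 3), without a stent under flow marked ++ (high-flow, n = 2) or without a stent under flow marked + (low-flow, n = 2). No group was stented without culture, and static vessels without a stent were not analysed here. Names of both stented static libraries hold a d mark with the number 3, and that of stented high-flow replicate 3 one with the number 7, which the sources used here do not explain. The labels give no breed, age, culture time or flow rate, and do not state which libraries share an animal. Library names of native replicate 2 and stented high-flow replicate 1 hold the same number, 25, and the other 9 libraries each hold a number of their own. Whether this number marks a shared animal or experiment is not stated, and the fit took all libraries as separate samples. The p-values hence measure the spread between these libraries, which may in part be technical.

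Endothelial cells form the single-cell lining of an artery and are held together by homophilic adhesion proteins at their borders. Their growth and quiescence are set in large part by receptor tyrosine kinases of the VEGF and TIE families, whose ligands come from the wall around them and from the endothelium itself. Several of these receptors respond to shear stress, since PECAM1, VE-cadherin (CDH5) and VEGFR2 (KDR) together form a junctional complex that senses flow. In a coronary artery most RNA comes from smooth muscle and adventitial cells, so endothelial transcripts are a small part of a whole-vessel library.

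Library totals were 13.5 to 26.8 in units of 1e6, and 3 counts corresponded to 0.105 to 0.215 counts per 1e6 (CPM) on scaled library sizes. The lowest count of any of the 7 genes was 80 (TEK in stented high-flow replicate 3) and the highest 12980 (PECAM1 in stented static replicate 1), so all 7 were detected in every library. The stented static libraries stood far apart: in replicate 1 the levels of PECAM1, CDH5, TEK, TIE1, KDR and FLT1 were 2.28 to 3.73 times those in replicate 2, while CGNL1 was alike in both. For some of the 7 genes, results on stented static vessels are therefore also given from fits without 1 of these libraries. Results on the gene lists rest on both. Mitochondrially encoded genes took 10.3% and 10.7% of counts in native and 3.19% to 8.65% in cultured libraries, and their part in the results below was not tested beyond leaving them out, which kept every call of the 7 genes against native and lost that of CGNL1 between low-flow and high-flow vessels (adjusted p = 0.0603). Levels are in CPM, and group levels are means ± SD over libraries. Changes are log2 fold changes ± standard error, and a gene passed the test when its p from the quasi-likelihood test of edgeR, adjusted by Benjamini-Hochberg over the 15348 genes, was under 0.05. Levels are compared between libraries for 1 gene and not between genes, because no transcript lengths were used.

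PECAM1 (CD31; ENSSSCG00000017277, chromosome 12, 14667643 to 14723296 in Sscrofa11.1, RefSeq) is an adhesion molecule of endothelial borders that is also carried by leukocytes and platelets. Its level was 388 and 489 CPM in the native libraries, 513 and 218 in the static ones, 104, 181 and 118 in stented vessels under flow, 279.1 and 195 in high-flow libraries and 249 and 347 in low-flow libraries. The stented high-flow libraries were the lowest and lay below all others, and the high-flow and low-flow libraries lay below both native ones. PECAM1 fell by 1.71 ± 0.38 on the log2 scale in stented high-flow vessels against native (adjusted p = 0.00904). In a bulk library, fewer endothelial cells and less RNA per endothelial cell cannot be told apart, and this holds for each decrease described here.

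CDH5 (VE-cadherin; ENSSSCG00000035772, chromosome 6, 27108560 to 27142145) is the cadherin of endothelial adherens junctions. Native libraries had 136 and 131 CPM of CDH5, stented static libraries 211 and 78.8, stented high-flow libraries 65.4, 70.1 and 64.1, high-flow libraries 153 and 89.8 and low-flow libraries 111 and 153. The 3 stented high-flow libraries were close to each other and below the other 8, whereas the means of the other 4 groups, 121 to 145 CPM, did not separate beyond their spread. Against native, CDH5 in stented high-flow vessels stood at -1.002 ± 0.37 and did not pass (adjusted p = 0.0744). It passed when either stented static library was left out of the joint fit (adjusted p = 0.0229 without replicate 1 and 0.0233 without replicate 2), at -0.99 in both fits, and its adjusted p ranged from 0.0193 to 0.238 over all alternatives.

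CGNL1 (paracingulin; ENSSSCG00000035038, chromosome 1, 114424148 to 114628331) is a cytoplasmic junction protein that is made by epithelial as well as endothelial cells. CGNL1 had 126 and 133 CPM in the native libraries, 145 and 144 in the static ones, 84.9, 89.5 and 105 in stented vessels under flow, 65.4 and 59.3 in high-flow libraries and 174 and 183 in low-flow libraries. No 2 neighbouring groups in the order low-flow, stented static, native, stented high-flow and high-flow overlapped. Its replicates were the closest of the 7 genes in stented static, high-flow and low-flow vessels, with a highest to lowest ratio of 1.01, 1.10 and 1.05.

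TEK (TIE2; ENSSSCG00000005122, chromosome 1, 195938177 to 196052294) is the receptor of the angiopoietins, which in its active state stabilises the endothelium. Native libraries had 64.9 and 91.9 CPM of TEK, stented static libraries 28.4 and 12.5, stented high-flow libraries 13.1, 8.70 and 3.75, high-flow libraries 11.14 and 18.6 and low-flow libraries 29.6 and 39.6. Every cultured library was below both native libraries, and low-flow was the highest cultured group, without overlap with stented static. The group means were 26.1%, 10.9%, 19.0% and 44.1% of the native mean in stented static, then stented high-flow, unstented high-flow and low-flow vessels.

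TIE1 (ENSSSCG00000003950, chromosome 6, 167919662 to 167947253) is the partner of TEK that binds no angiopoietin directly and modulates TEK signalling. Its level was 60.3 and 55.5 CPM in the native libraries, 104 and 27.8 in the static ones, 19.3, 21.4 and 20.3 in stented vessels under flow, 36.0 and 45.9 in high-flow libraries and 36.5 and 58.9 in low-flow libraries. As for CDH5, the stented high-flow libraries were tightly grouped and the lowest, and the other groups overlapped with their neighbours in order. The spread between the stented static libraries, 3.73-fold, was the widest of any of the 7 genes within a group.

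KDR (VEGFR2; ENSSSCG00000008844, chromosome 8, 41809116 to 41856379) carries most of the mitogenic signal of VEGFA in endothelium. Native libraries had 82.2 and 71.2 CPM of KDR, stented static libraries 51.4 and 20.6, stented high-flow libraries 6.67, 15.5 and 11.99, high-flow libraries 34.5 and 11.5 and low-flow libraries 12.8 and 14.7. All 9 cultured libraries were below both native ones. The means were 46.9%, 14.9%, 29.95% and 17.9% of native in stented static, then stented high-flow, unstented high-flow and low-flow vessels, and, with the groups ordered by their means, the step from native to stented static was the 1 step without overlap.

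FLT1 (VEGFR1; ENSSSCG00000009320, chromosome 11, 5620698 to 5797095) binds VEGFA tightly with weak kinase activity and also exists as a soluble decoy. FLT1 stood at 89.1 and 86.3 CPM in the native libraries, 65.6 and 28.2 in the static ones, 26.3, 38.6 and 18.1 in stented vessels under flow, 42.6 and 33.4 in high-flow libraries and 36.1 and 62.7 in low-flow libraries. Again every cultured library was below both native libraries, and the 4 cultured groups overlapped with their neighbours in order. The counts do not separate the membrane-bound and soluble forms.

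**Figure D1:**
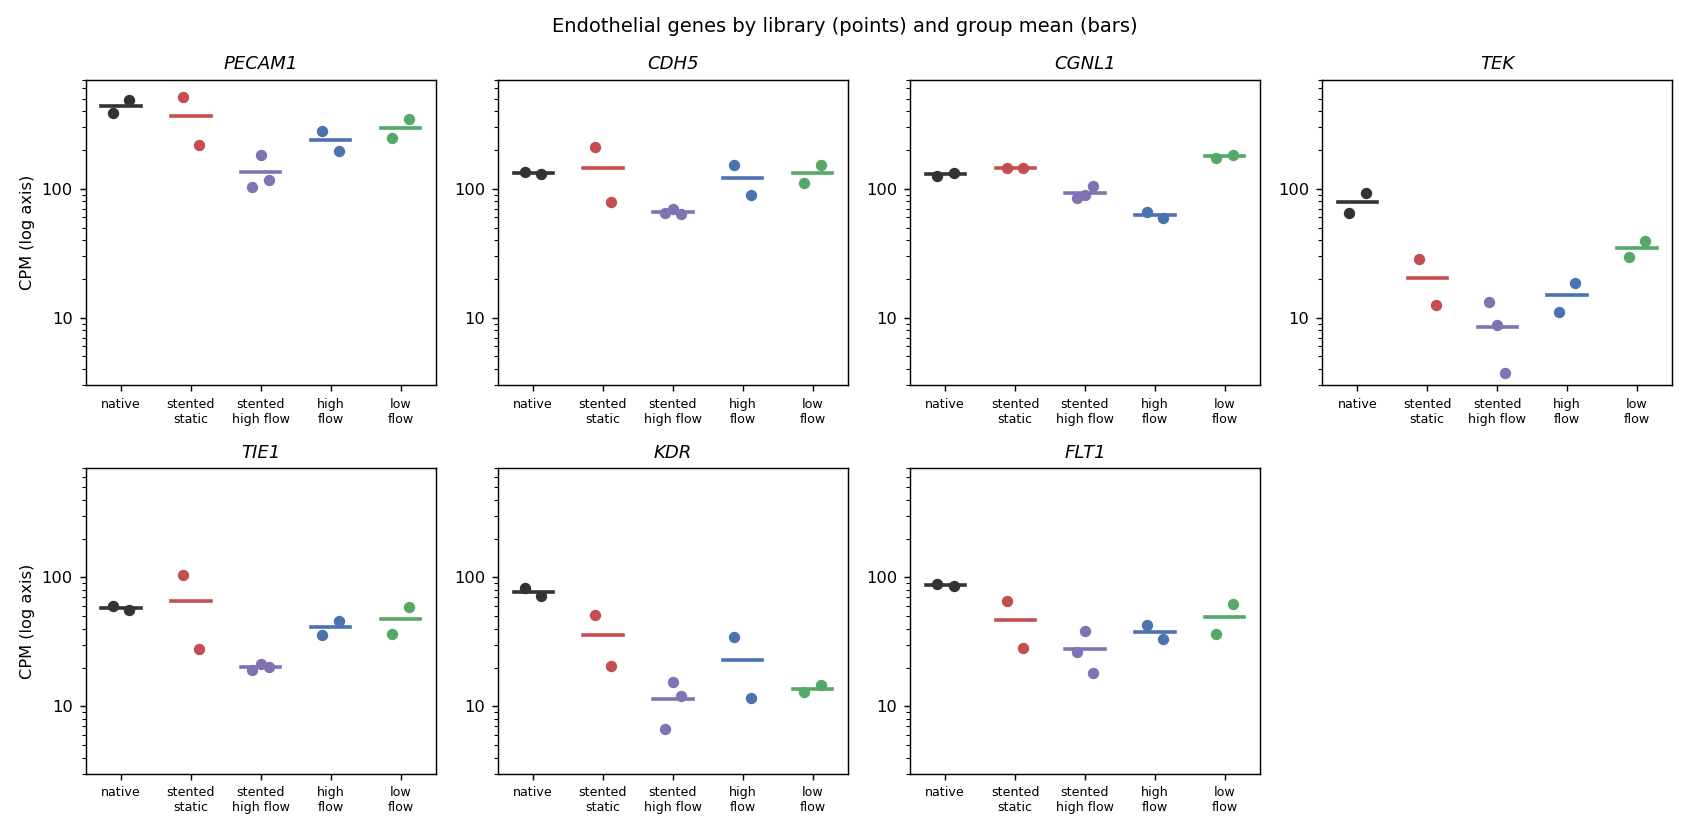
Level of the 7 matched endothelial genes in each library (points, CPM on a log axis) by group, with bars at group means. The 3 stented high-flow libraries are the lowest for PECAM1, CDH5 and TIE1, all cultured libraries are below native for TEK, KDR and FLT1, and CGNL1 is lowest in high-flow and highest in low-flow vessels.

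Across the 5 groups together, TEK (adjusted p = 0.00761), KDR (0.0148) and CGNL1 (0.00690) differed in the quasi-likelihood test of edgeR, which is 3 of 7 against 16.8% of all genes tested. PECAM1 (0.0545), FLT1 (0.0882), TIE1 (0.0946) and CDH5 (0.196) did not pass in this test. For the alternatives that follow, shares of all genes were not counted. DESeq2 called 6 of the 7, and the count was 1 to 7 when single libraries were left out.

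Each cultured group was then set against native to ask which of the genes departed from the uncultured artery. The 4 comparisons share the same 2 native libraries. TEK passed in 3 of the 4, KDR in 2, PECAM1, TIE1, FLT1 and CGNL1 in 1 each and CDH5 in none of them by edgeR, and every call was a decrease. DESeq2 called CDH5 lower in stented high-flow vessels (adjusted p = 0.0456), where its unadjusted p in edgeR was 0.0215.

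In stented high-flow vessels 5 of 7 genes were lower, against 13.9% of all genes called lower, and the median change of the 7 was -1.66, against 0.06 over all genes. All 7 had libraries that did not overlap with native, as did 53.0% of all genes. TEK fell by 3.21 ± 0.50 (adjusted p = 0.00144), which is 9.24-fold, and KDR fell by 2.75 ± 0.51 (adjusted p = 0.00346), which is 6.71-fold. These calls were kept in each of 11 fits that left out 1 library, with adjusted p up to 0.0130 for TEK and 0.0273 for KDR. Of the libraries that share a number, leaving out native replicate 2 gave 2 of the 7 called, and leaving out stented high-flow replicate 1 gave 4.

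FLT1 fell by 1.66 ± 0.41 (adjusted p = 0.0134) and TIE1 by 1.51 ± 0.43 (adjusted p = 0.0278) in stented high-flow vessels, each about as much as PECAM1. FLT1 no longer passed without native replicate 1 or 2 (adjusted p = 0.0688 and 0.0651), nor PECAM1 without native replicate 2 (0.0760). TIE1 no longer passed without either native library (0.127 without replicate 1 and 0.105 without replicate 2) or without stented high-flow replicate 1, 2 or 3 (0.0555, 0.0696 and 0.0571), nor with the libraries of 1 count table alone (0.0545). CGNL1 stood at -0.48 ± 0.21 (adjusted p = 0.120).

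In high-flow vessels without a stent 2 of 7 genes were lower, against 8.86% of all genes, with a median of -1.06 against 0.02 over all genes. The libraries of 6 of the 7 did not overlap with native, as for 62.8% of all genes. TEK fell by 2.40 ± 0.56 (adjusted p = 0.0176), and CGNL1 fell by 1.06 ± 0.23 (adjusted p = 0.0135), from 130 ± 4.78 to 62.4 ± 4.31 CPM. TEK was no longer called without native replicate 2 or high-flow replicate 1 or 2 (adjusted p = 0.0507 to 0.138), and CGNL1 without any 1 of the 4 native and high-flow libraries (0.0673 to 0.109). KDR stood at -1.74 ± 0.56 (adjusted p = 0.0611), and it passed without high-flow replicate 1 (0.0462), without either stented static library (0.0402 and 0.0395) or without stented high-flow replicate 1 (0.0447), with DESeq2 (0.0144) and with limma-voom (0.0312), within a range of 0.0144 to 0.277 over all alternatives.

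In low-flow vessels 1 of 7 genes was lower, against 7.38% of all genes, with a median of -0.56 against 0.00 over all genes. Libraries did not overlap with native for 5 of the 7, as for 67.9% of all genes. KDR fell by 2.48 ± 0.58 (adjusted p = 0.0200), which is 5.58-fold. Its call was lost without any 1 of the 4 native and low-flow libraries (adjusted p = 0.0780 to 0.150). CDH5 differed from native by -0.01 ± 0.42 and TEK by -1.18 ± 0.54 (adjusted p = 0.179).

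In stented static vessels 1 of 7 genes was lower, against 7.19% of all genes, with a median of -0.26 against 0.02. The libraries of 4 of the 7 did not overlap with native, as for 58.7% of all genes. TEK fell by 1.94 ± 0.55 (adjusted p = 0.0432). The call was lost in 8 of 11 fits without 1 library (adjusted p = 0.0501 to 0.215), namely without either native library, stented static replicate 2, stented high-flow replicate 2 or any high-flow or low-flow library, while TEK stood lower at -2.64 without stented static replicate 1. It was also lost with library totals as scaling (0.0802) and with the libraries of 1 count table (0.0814). CDH5 was at 0.12 ± 0.42 and TIE1 at 0.18 ± 0.48 with both static libraries, but at -0.74 and -1.04 without replicate 1, and neither passed in any of these fits.

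**Figure D2:**
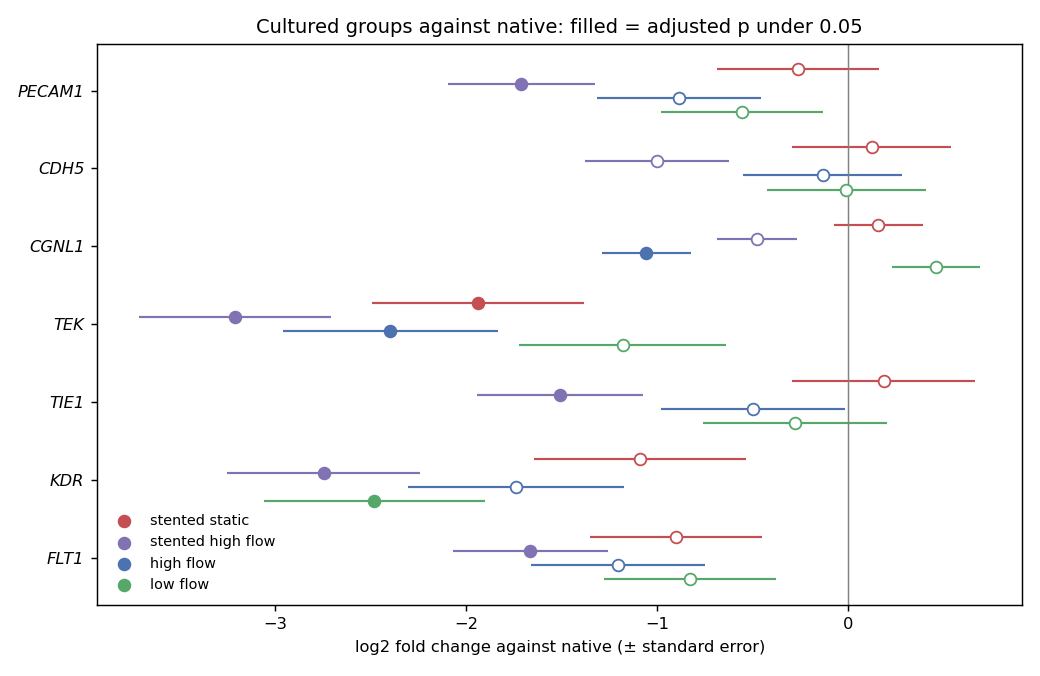
Log2 fold change of each gene against native (horizontal axis, bars are standard errors) in the 4 cultured groups, with filled points where the adjusted p is under 0.05. All 9 filled points lie below 0, and 5 of them belong to stented high-flow vessels.

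The authors' deposited table of genes changed in stented high-flow against native lists TEK at -3.22 and KDR at -2.75 among 1117 entries. The authors' deposited tables for high-flow (1129 entries) and low-flow (928 entries) list TEK at -2.39 and KDR at -2.48, respectively. None of the 7 genes is in the authors' deposited table for stented static against native, which has 553 entries. PECAM1, TIE1, FLT1 and CGNL1, called here at log2 fold changes of -1.71 to -1.06, are not in these lists. The lists are shorter than the 1904 to 3737 genes called against native here. The full rule by which their entries were chosen is not given here. Absence from a list hence does not show that the authors' values differ.

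Comparisons between cultured groups ask what flow and a stent added to culture. Both stented static libraries hold the d mark with the number 3, and no stented high-flow library does. Between these groups, flow cannot be told apart from what this mark denotes. Between stented vessels with and without flow, none of the 7 genes passed in edgeR, against 2.85% of all genes called in either direction. An unadjusted p under 0.05 was reached by 6 of the 7, and the share of all genes at that cutoff was not counted. All 7 log2 fold changes were below 0, from -0.64 ± 0.21 for CGNL1 to -1.69 ± 0.43 for TIE1 (adjusted p = 0.0645), with PECAM1 at -1.45 ± 0.38 (adjusted p = 0.0698). Libraries did not overlap for 5 of the 7, as for 30.1% of all genes. DESeq2 called 4 (PECAM1, TIE1, KDR and CGNL1), and 1368 of all genes against 438 in the main fit. On library totals without scaling factors edgeR called the same 4, with 3.88% of all genes lower against 1.67% in the main fit. Without a filter on low counts edgeR called 3, and limma-voom called 0. The values also moved with the stented static libraries left out: without replicate 2, PECAM1, CDH5, TIE1 and KDR stood at -1.93, -1.66, -2.34 and -2.16. Over all alternatives, the log2 fold changes of these 4 genes ran up to -0.71, -0.25, -0.46 and -0.85, and that of FLT1 up to -0.04.

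Between low-flow and high-flow vessels, CGNL1 was the 1 gene of the 7 that passed, and 0.104% of all genes (16) passed in either direction. It was higher by 1.52 ± 0.24 in low-flow (adjusted p = 0.0497), at 178 ± 6.65 against 62.4 ± 4.31 CPM. The fold change was 1.42 to 1.59 under all alternatives, but the adjusted p lay close to the threshold and ranged up to 0.562, and the call was kept in 2 of the 11 fits without 1 library, those without stented high-flow replicate 1 or 3, and in 5 of 11 other alternatives. TEK, higher in both low-flow libraries than in both high-flow ones, stood at 1.22 ± 0.55 (adjusted p = 0.616), and KDR at -0.74 ± 0.55 (adjusted p = 0.748). The libraries did not overlap for 2 of the 7, CGNL1 and TEK, and for 45.2% of all genes.

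Between stented and unstented vessels under the flow marked ++, edgeR called none of the 7 genes, and 0 of all genes (0%). CDH5, TIE1 and CGNL1 had an unadjusted p under 0.05, a cutoff at which the share of all genes was not counted. DESeq2 and limma-voom called 0 of the 7 as well. CDH5 stood at -0.87 ± 0.37 and TIE1 at -1.01 ± 0.43, both lower with a stent, and CGNL1 at 0.58 ± 0.21, higher with a stent. These groups come from different count tables, in which the native columns hold the same counts. Library names hold the numbers 25, 28 and 32 with a stent and 23 and 24 without. A stent effect cannot be told apart from other differences between these sets of libraries.

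Setting each gene against CDH5 within a library shows whether the endothelial genes kept their proportions. KDR had 57.5 counts per 100 CDH5 counts in native vessels (geometric mean), 25.3 in static ones, 16.3 in stented vessels under flow, 17.1 in high-flow vessels and 10.6 in low-flow vessels. The same ratio for TEK was 58.0, 14.7, 11.5, 12.4 and 26.3. FLT1 was at 65.8 in native and 32.3 to 39.8 in the cultured groups, and PECAM1 at 326.8 in native and 195.5 to 259.0. Every cultured library lay below both native libraries for the ratios of KDR, TEK, FLT1 and PECAM1 alike. TIE1 was at 43.5 in native and 30.7 to 41.7 in the cultured groups, and CGNL1 at 97.4 in native and 53.2 to 139.4. Cultured and native libraries overlapped for TIE1 and CGNL1.

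In an exact permutation test of the between-group F ratio over all 415800 arrangements of the libraries, the ratio to CDH5 gave p = 0.0137 for KDR, 0.0466 for TEK, 0.0880 for PECAM1, 0.115 for FLT1, 0.117 for CGNL1 and 0.583 for TIE1. After Benjamini-Hochberg adjustment over these 6 tests none passed, with 0.0821 for KDR and 0.140 for TEK (2 of 6 had an unadjusted p under 0.05). Leaving out single libraries gave 0 to 2 that passed: CGNL1 passed without stented static replicate 1 (adjusted exact p = 0.0467) or replicate 2 (0.0414), KDR without high-flow replicate 2 (0.0476), and KDR (0.0413) and PECAM1 (0.0127) without stented high-flow replicate 2.

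**Figure D3:**
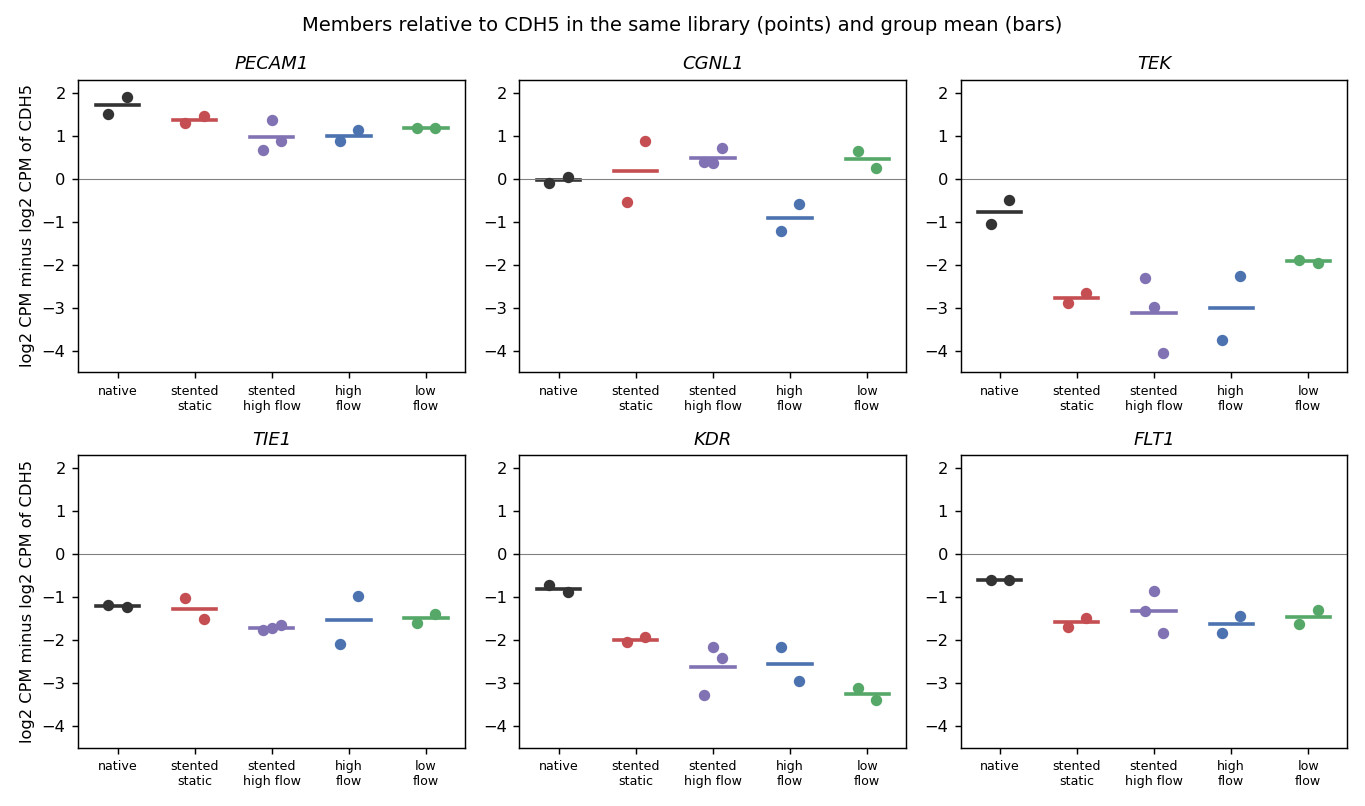
Log2 CPM of 6 genes minus that of CDH5 in the same library (points, vertical axis) by group, with bars at group means. PECAM1, TEK, KDR and FLT1 are lower relative to CDH5 in every cultured library than in both native ones. TIE1 overlaps with native in stented static and high-flow vessels, and CGNL1 is below native in both high-flow libraries.

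Over the 11 libraries, the log2 CPM of PECAM1, CDH5, TEK, TIE1, KDR and FLT1 had Pearson correlations of 0.62 to 0.91 with each other (15 pairs), highest between CDH5 and TIE1. Pairs with CGNL1 had 0.24 to 0.47 (6 pairs). These values hold differences between groups as well as within them. Within groups the range was -0.14 to 0.87 for the first 15 pairs. Pairs with TEK had -0.14 (with KDR) to 0.63 (with FLT1) within groups. The others had 0.46 (TIE1 and KDR) to 0.87 (PECAM1 and FLT1). Stented static replicate 1 was part of these values. Without that library the range of the first 15 pairs over all groups was 0.62 to 0.91 again. These values are descriptions with no test.

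The genes most like each of the 7 across the 11 libraries, among named genes with a mean log2 CPM of at least 1, included other endothelial genes for the receptors. TEK was closest to PTPRB (r = 0.97), the endothelial receptor phosphatase VE-PTP that acts on TEK and VE-cadherin, then to MYCT1 (0.96). FLT1 was likewise closest to PTPRB (0.95), followed by SHE and MYCT1 (0.93 each). KDR was closest to the endothelial adhesion receptor ADGRF5 (0.98), then PDE2A (0.97) and LYVE1 (0.96), a marker of lymphatic endothelium and of some macrophages. TIE1 was nearest to PTPRE (0.97), ADGRG1 (0.97) and SEMA3F (0.95).

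The nearest genes of CDH5 and PECAM1 were in part genes of blood cells. CDH5 was closest to AIF1 (r = 0.95), a macrophage marker, and HCLS1 (0.93), which is expressed in haematopoietic cells, and then to B3GNT3 (0.92). PECAM1 was closest to USHBP1, MFSD4A and ARHGAP25 (0.94 each). Without stented static replicate 1, the correlation of CDH5 with AIF1 was 0.92 and with HCLS1 0.90. CGNL1 had lower best values, 0.93 for the Eph receptor EPHB2 and 0.91 for MDC1 and SLC27A6.

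Genes of VEGF and angiopoietin ligands changed in both directions. Of 9 listed, among them the angiopoietin-like protein ANGPTL4, which is not a ligand of TEK, TIE1, KDR or FLT1, 7 were tested, and 2, 3, 3 and 2 were higher and 2, 1, 1 and 1 lower in stented static, then stented high-flow, unstented high-flow and low-flow vessels against native. Over all genes 5.54%, 10.4%, 5.94% and 5.03% were called higher and 7.19%, 13.9%, 8.86% and 7.38% lower in these comparisons. Without ANGPTL4, 1, 2, 2 and 2 were higher. The medians of the 7 were -0.63, -0.62, 0.30 and 0.90. VEGFA, the main ligand of KDR and FLT1, was at 100.2 and 59.3 CPM in native and at 461 to 1271 in the 9 cultured libraries. It rose in all 4 groups (log2 fold change 2.61 to 3.48, adjusted p = 0.000587 to 0.00544).

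VEGFD, which in humans binds the lymphatic VEGF receptor and KDR, fell in all 4 groups, from 18.7 CPM in native to 0.843 to 2.67 (log2 fold change -4.46 to -2.80, adjusted p = 0.00212 to 0.0135). ANGPT1, the activating ligand of TEK, fell in stented static vessels (-3.50, adjusted p = 0.0201) from 7.68 to 0.695 CPM and did not pass in the other 3 groups. The other calls, named after their values were seen, were rises of VEGFC in stented high-flow, unstented high-flow and low-flow vessels and of ANGPTL4 in both stented groups and high-flow vessels. The antagonist ANGPT2, at 36.6 CPM in native, did not pass in any of the 4 groups.

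Among 7 co-receptors and phosphatases, 1 was higher in each cultured group, and 1 was lower under the flow marked ++, with or without a stent. Of 7 genes, 1 is close to the share of all genes called higher (10.4%) or lower (13.9%) in stented high-flow vessels, and the shares in high-flow vessels were 5.94% and 8.86%. The riser in all 4 was NRP1, a co-receptor of KDR, from 153 CPM in native to 469 to 552 (log2 fold change 1.61 to 1.85, adjusted p = 0.00754 to 0.0230). PTPRB fell from 92.3 CPM to 15.5 in stented high-flow (-2.58, adjusted p = 0.00115) and 28.6 in high-flow vessels (-1.69, adjusted p = 0.0246). The medians were 0.33, -0.22, -0.24 and 0.07.

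**Figure D4:**
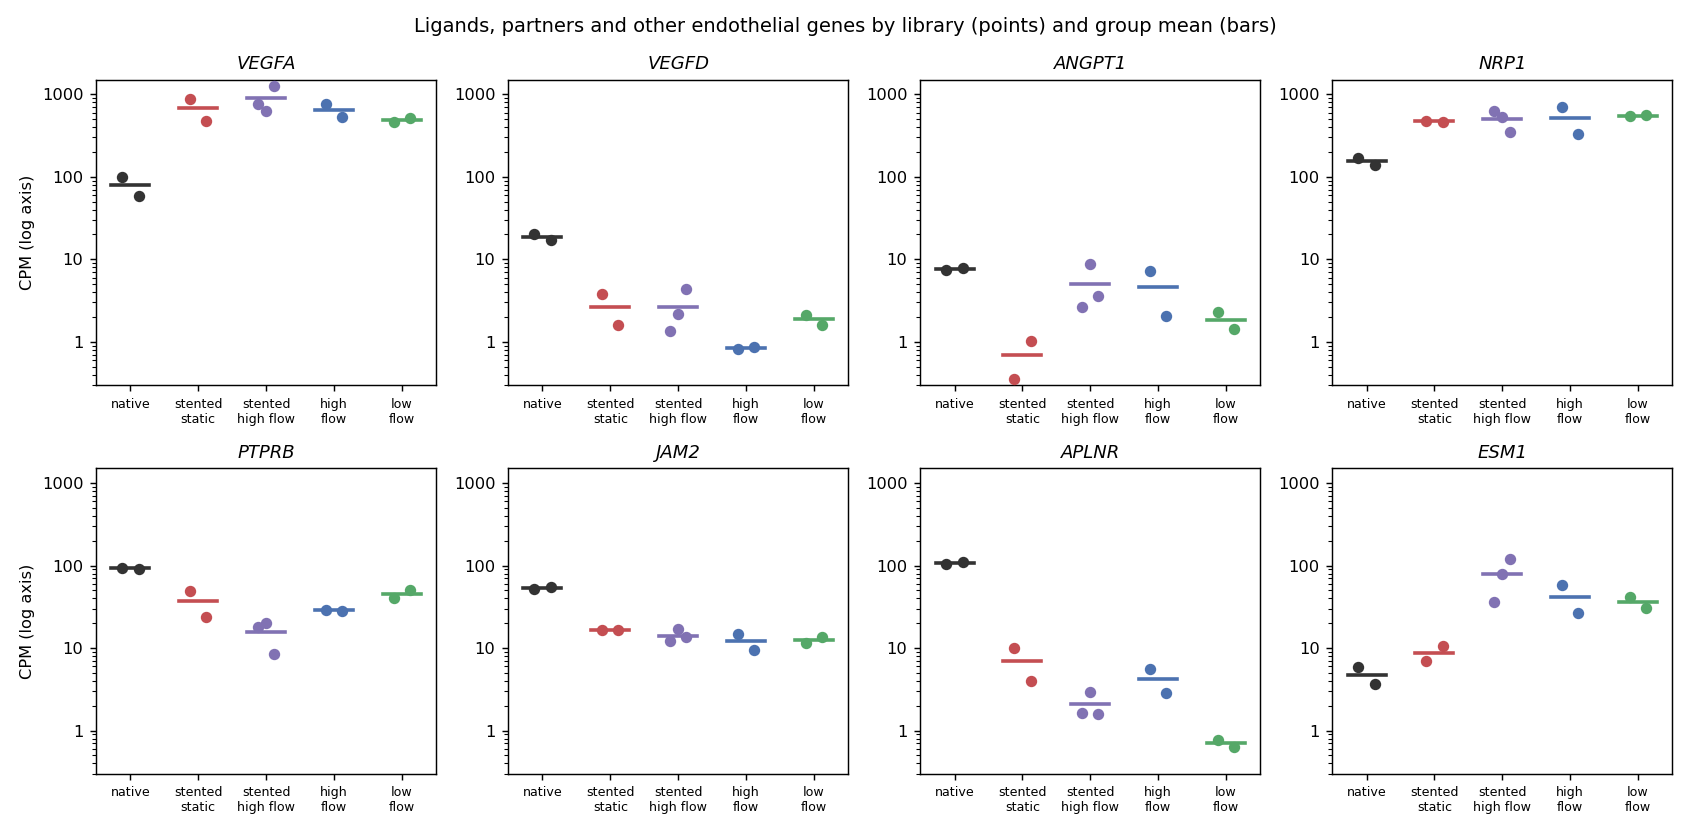
Levels of ligands (VEGFA, VEGFD, ANGPT1), a co-receptor (NRP1), a phosphatase (PTPRB), a junction partner (JAM2) and other endothelial genes (APLNR, ESM1) by library (points, CPM on a log axis) and group, with bars at group means. VEGFA and NRP1 are above native in every cultured library, and VEGFD, PTPRB, JAM2 and APLNR are below.

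Of 20 listed junction partners 16 were tested, and 4, 7, 3 and 3 were lower in stented static, then stented high-flow, unstented high-flow and low-flow vessels, with medians of -0.44, -0.33, -0.50 and -0.25. The shares of all genes called lower were 7.19%, 13.9%, 8.86% and 7.38%. JAM2, an adhesion molecule of tight junctions, fell in all 4 groups, from 52.8 CPM to 12.3 to 16.6 (log2 fold change -2.11 to -1.67). The tight junction protein OCLN fell in stented high-flow vessels, from 8.11 to 1.05 CPM (-2.93, adjusted p = 0.0161). ARHGAP29, a GTPase-activating protein, fell in stented static (-1.48), stented high-flow (-1.54) and low-flow vessels (-1.56). The remaining decreases, named after their values were seen, were of PKP4 in all 4 groups, JAM3 in both stented groups and high-flow, and ESAM and AFDN in stented high-flow vessels.

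The storage granules in which endothelium keeps von Willebrand factor were followed through 12 tested genes of 13 listed. SELP, the P-selectin of these granules, was at 24.3 CPM in native and 1.37 in stented static vessels, where it fell (-4.14, adjusted p = 0.0393). RAB3D, a small GTPase of granule release, rose in stented high-flow vessels (1.29, adjusted p = 0.0245). MYRIP, a linker of granules to the cytoskeleton that was named after its values were seen, fell in both stented groups and in high-flow vessels. The medians of the list were 0.03, -0.36, 0.04 and 0.03, close to those of all genes except in stented high-flow vessels.

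Of 17 listed transcription factors of endothelium 14 were tested, and 10 were lower and 1 higher in stented high-flow vessels, with a median of -1.41, while 3, 4 and 3 were lower in stented static, high-flow and low-flow vessels, with medians of -0.46, -0.87 and -0.53. Of all genes, 13.9% were called lower and 10.4% higher in stented high-flow vessels, and 7.19%, 8.86% and 7.38% lower in the other groups. FOXC2 fell in all 4 groups, from 107.8 CPM to 13.9 to 20.5. ETS2 fell in stented high-flow (-2.31), unstented high-flow (-2.19) and low-flow vessels (-1.96), and MEF2C in stented static (-2.04) and stented high-flow vessels (-1.72). ERG, which maintains CDH5 expression, was at 74.4 CPM in native and 63.9 to 125 in the cultured groups and did not pass in any of them. FLI1 fell in all 4 groups and ELK3 rose in stented high-flow and high-flow vessels. ERG, FLI1 and ELK3 were named after their values were seen, and several of these factors are also made by smooth muscle or blood cells.

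A list of 28 further pan-endothelial genes, 26 of them tested, had 2, 12, 6 and 5 lower and 1, 2, 2 and 2 higher in stented static, then stented high-flow, unstented high-flow and low-flow vessels. Of all genes, 7.19%, 13.9%, 8.86% and 7.38% were called lower and 5.54%, 10.4%, 5.94% and 5.03% higher, so the count in stented static vessels was near the share of all genes. The medians of the list were -0.17, -1.25, -0.69 and -0.64. The apelin receptor APLNR fell most, from 107 CPM in native to 7.03, 2.07, 4.21 and 0.700 (log2 fold change -7.26 to -3.92, adjusted p = 9.59e-05 to 0.00135). PALMD fell in all 4 groups (log2 fold change -3.24 to -2.26). ESM1, an endothelial gene induced by VEGF, rose in stented high-flow (4.05, adjusted p = 0.000937), high-flow (3.14, adjusted p = 0.00602) and low-flow vessels (2.93, adjusted p = 0.00988), and stood at 0.89 in stented static vessels (adjusted p = 0.313). ENG, named after its values were seen, was the other riser, in all 4 groups.

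Of 8 listed genes of endothelial activation 7 were tested. The chemokine CCL2 rose in all 4 groups (log2 fold change 1.44 to 3.10), from 98.9 CPM to 269 to 846, and CXCL8 rose in stented high-flow (5.10), unstented high-flow (3.87) and low-flow vessels (4.58), from 0.439 CPM. IL6, named after its values were seen, fell in stented static and low-flow vessels. The adhesion molecules VCAM1 and ICAM1 did not pass in any group, with log2 fold changes of -1.21 to 0.10 and -0.41 to 0.51. These genes are made by smooth muscle, fibroblasts and macrophages too.

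Among 7 tested factors of endothelial to mesenchymal transition (9 listed), SNAI1 rose in stented high-flow (2.52, adjusted p = 0.00343) and high-flow vessels (2.56, adjusted p = 0.00682). TWIST2 rose in stented high-flow vessels with an adjusted p just under the threshold (2.50, adjusted p = 0.04999), and CDH2 fell in high-flow vessels (-2.55, adjusted p = 0.0135). TGFB2 in all 4 groups, ZEB1 in both stented groups and SNAI2 in stented high-flow vessels fell, and were named after their values were seen. The medians of the list were -0.95, -0.38, -0.72 and -0.72.

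Markers of other cell types moved with the groups as well. The summed level of 14 macrophage and monocyte markers was 474 and 486 CPM in the native libraries, 2134 and 900 in the static ones, 386 to 750 in stented vessels under flow, 366 to 608 in high-flow libraries and 836 and 1032 in low-flow libraries. Stented static replicate 1, the highest of all libraries for CDH5, TIE1 and PECAM1, was thus also the highest for these markers, with CD163 at 1075 CPM against 445 in replicate 2. CD163 was the largest part of both static sums, with 55.2 and 46.1 CPM in native. Of these 14 markers, 5, 3, 3 and 3 were called higher in stented static, then stented high-flow, unstented high-flow and low-flow vessels against native. The shares of all genes were 5.54%, 10.4%, 5.94% and 5.03%. CSF1R was the 1 marker called lower, in stented high-flow (-2.35) and high-flow vessels (-2.55), where 13.9% and 8.86% of all genes were. The sum of 10 leukocyte and lymphocyte markers was 64.0 and 73 CPM in the native libraries, 212 and 88.8 in the static ones and 33.8 to 207 in the libraries under flow, where the T cell marker CD3E was at 0 in all 7. LCP1 was the largest part of this sum in every library, at 34.4 and 30.4 CPM in native and 136 and 57.7 in the static ones. The 11 contractile smooth muscle markers matched summed to 34020 and 41950 CPM in native and to 588 to 8146 in the 9 cultured libraries.

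Adipocyte markers, too, set stented static replicate 1 far above replicate 2. Their 9 matched markers summed to 3068 and 1969 CPM in native, 2720 and 272.7 in stented static replicates 1 and 2, 49.8 to 112 in stented vessels under flow, and 79.2 and 227 with high flow or 208 and 294 with low flow alone. Of the 9, 6 were called lower in stented high-flow vessels both against native and against stented static ones. Of all genes, 13.9% and 1.67% were called lower in these 2 comparisons. Pericyte markers (8 matched) summed to 2429 and 2777 CPM in native and 1134 to 1774 in cultured libraries, Schwann and neural markers (9) to 1059 and 989.6 and to 78.1 to 330.0, and erythrocyte markers (5) to 36.99 and 48.4 and to at most 1.34. The part of these cell types in the results on PECAM1, CDH5 and the receptors was not tested.

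Platelet and megakaryocyte markers (7 of 10 matched) summed to 6.12 and 4.14 CPM in native and 5.35 to 13.6 in cultured libraries. Among them PPBP, a platelet chemokine, was at 0 in both native libraries and at 3.20 CPM or less elsewhere, and was called higher in the 3 groups under flow. The 7 lymphatic endothelial markers summed to 161 and 227 CPM in native and 183 to 452 in cultured libraries, but PDPN, which was called higher in all 4 groups, made up most of it in 8 of the 9 cultured libraries (not in stented static replicate 1), with 11.9 and 18.1 CPM in native and 131 to 357 in cultured libraries. LYVE1, RELN and CCL21 were called lower in stented high-flow vessels, and the medians of the 7 log2 fold changes were 0.07, -2.42, -1.55 and -1.68 in stented static, then stented high-flow, unstented high-flow and low-flow vessels. PROX1, the defining factor of this lineage, was at 3.13 CPM or less everywhere and at 0 in 1 stented high-flow library. The part of these markers in the results was likewise not tested. Cardiomyocyte markers summed to 1418 CPM in native replicate 1 and 85.1 in native replicate 2, and to 2.81 to 52.3 in the cultured libraries. MYH6 alone was at 539.5 and 1.67 CPM in native replicates 1 and 2. These libraries are the baseline of all 4 comparisons against native, and the part of this difference in the results was not tested.

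**Figure D5:**
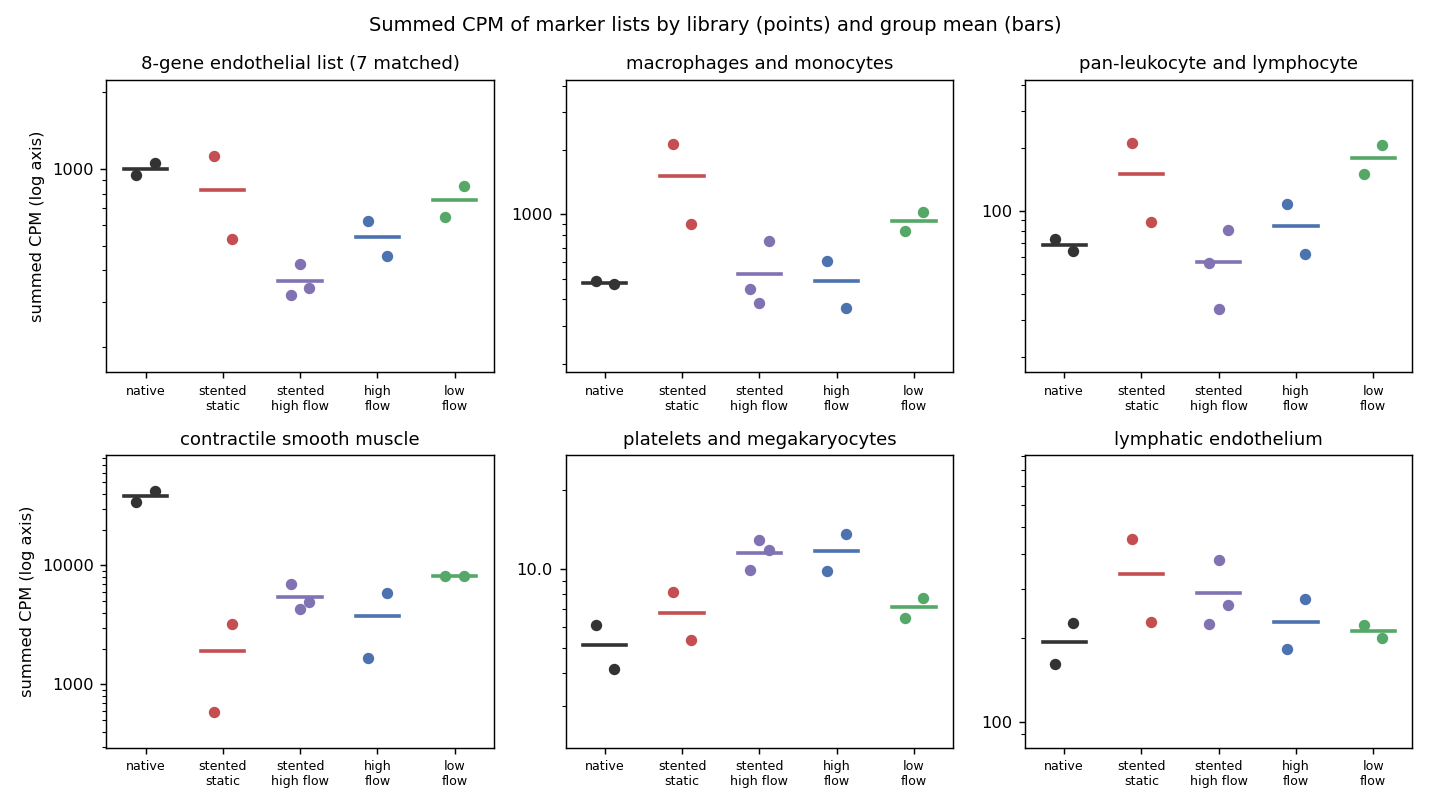
Summed CPM (log axis) of the 7 matched endothelial genes and of 5 marker lists by library (points) and group, with bars at group means. The endothelial sum is 319 to 425 in stented high-flow libraries against 947 and 1058 in native, and stented static replicate 1 is the highest library for the endothelial, macrophage, leukocyte and lymphatic sums.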

How the data were processed

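Bulk RNA of 11 porcine coronary artery libraries was sequenced from paired ends. The authors deposited raw gene counts in 2 tables with the same native columns, and 4 lists of changed genes with log2 fold changes against native, deposited by the authors and used here only as quoted. Per the submitters' processing notes, the tools were Trimmomatic, FastQC and DESeq2 and the build was Sscrofa11.1. For the aligner and the annotation, names were not given in the sources used here. Symbols were given for 14857 of 25880 identifiers, and positions are RefSeq's.

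Groups came from the labels. Counts were fitted in R 4.3.3 with edgeR 4.0.16 (filterByExpr, TMM, quasi-likelihood test, 1 joint fit of 5 groups, 6 residual degrees of freedom, Benjamini-Hochberg, threshold 0.05). A prior count of 2 went into log2 CPM. Of 7 comparisons 4 were against native, 1 was between stented vessels with and without flow, 1 between both flows and 1 between stented and unstented vessels under the flow marked ++. The script was tested on simulated data. The 8 symbols and the 20 gene lists (8 of pathways, 12 of cell type markers) were chosen with earlier results of these data known. Named were all 8 symbols, up to 3 called genes a pathway list with the largest mean change and of at least 1 in mean log2 CPM, and the 3 genes most correlated with each of the 7. A few genes that this rule or a count covers are not reported here.

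Alternatives were DESeq2 1.42.0, limma-voom (limma 3.58.1), 3 other scalings, 2 other filters, a threshold of 0.01, a replicate block, fewer libraries in the fit, leaving out each library, and no mitochondrially encoded genes. They were run for the 7 genes and not for the genes of the lists. Of 20 pairs of same-numbered libraries, 6 had a correlation of deviations over 0.1. Between groups of 2 libraries, both replicate numbers give the same value by construction. This check hence cannot decide whether replicate numbers pair the libraries.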

Additional observations from a re-analysis of the deposited data

Results flagged for a closer look

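CGNL1 differed between the changes against native in low-flow and high-flow vessels, by the test of the difference itself: the low-flow minus high-flow value was 1.52 ± 0.24 on the log2 scale (quasi-likelihood test of edgeR, Benjamini-Hochberg adjusted p = 0.0497). Against native it stood at 0.46 ± 0.23 in low-flow (adjusted p = 0.220) and fell by 1.06 ± 0.23 in high-flow vessels (adjusted p = 0.0135), and both low-flow libraries were higher than both high-flow libraries. The libraries of these groups did not overlap for 45.2% of all genes either. Groups of 2 or 3 libraries were too small to look for single libraries that stand apart from their group.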

How the results depend on the processing

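Numbers of the 7 genes called, where they moved by over 1.5 times, were as follows. Any difference among groups (3 called): 6 with DESeq2 and 6 without a filter, and 1 to 7 when single libraries were left out. Stented static against native (1): 0 with library totals, with 1 count table and at a threshold of 0.01, and 0 to 1 without single libraries. Stented high-flow against native (5): 3 at 0.01, and 2 to 6 without single libraries. High-flow against native (2): 4 with DESeq2, with the groups compared alone and with 1 count table, 0 at 0.01, and 0 to 3 without single libraries. Low-flow against native (1): 3 with the groups compared alone, 2 with 1 count table, 0 at 0.01, and 0 to 1 without single libraries. Stented high-flow against stented static (0): 4 with DESeq2 and with library totals, 3 without a filter, and 0 to 4 without single libraries. Low-flow against high-flow (1): 0 with RLE size factors, upper-quartile scaling, at least 10 counts in every library, the groups compared alone, without mitochondrially encoded genes and at 0.01, and 0 to 1 without single libraries. Stented against unstented high-flow stayed at 0 in all alternatives run, and the ratio to CDH5 (0 of 6) at 0 with a prior count of 0.5 and at 0 to 2 without single libraries. The causes were not tested, other than that fits with fewer libraries have fewer degrees of freedom.

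With the replicate block, 3 of the 7 genes were called in stented high-flow against native (TIE1 and FLT1 were lost) and 0 in low-flow against high-flow, and the other counts moved by no more than 1.5 times. Replicate numbers share no stated source, and correlations of same-numbered libraries ran from -0.33 to 0.18.

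Library totals in place of TMM raised the median of all genes by 0.41, 0.15, 0.21 and 0.27 against native (stented static, stented high-flow, high-flow, low-flow) and lowered it by -0.26 in stented high-flow against stented static. The share of calls that were lower against native then changed from 56.5%, 57.2%, 59.9% and 59.5% to 26.0%, 46.7%, 42.8% and 38.0%, and from 58.7% to 79.5% in stented high-flow against stented static.

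Signs turned in values that did not pass, whose main log2 fold changes ran from -0.74 (KDR, low-flow against high-flow) to 0.38 (FLT1, low-flow against high-flow). CDH5 in low-flow against native was 0.00081 with upper-quartile scaling, 0.26 with library totals, 0.0062 without a filter, 0.019 with the block, 0.0010 with the groups compared alone and -0.26 to 0.21 without single libraries. In stented static against native, limma-voom gave -0.043 for CDH5 and -0.086 for TIE1, library totals gave 0.15 for PECAM1, and fits without single libraries gave -0.74 to 0.66 for CDH5, -1.04 to 0.84 for TIE1 and -0.996 to 0.23 for PECAM1. CDH5 in high-flow against native was 0.068 with library totals. Without single libraries it was -0.56 to 0.24, TIE1 in low-flow against native -0.66 to 0.033, and in low-flow against high-flow KDR was -1.35 to 0.26, CDH5 -0.23 to 0.56, TIE1 -0.17 to 0.53 and FLT1 -0.077 to 0.72.

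All genes called numbered 1955, 3737, 2272 and 1904 against native (514 to 3092, 1542 to 4561, 752 to 3854 and 361 to 4884 over the alternatives), 438 in stented high-flow against stented static (32 to 1368), 16 in low-flow against high-flow (2 to 105) and 0 in stented against unstented high-flow (0 to 6). How depth limits these comparisons was not tested. The lowest count of any of the 7 genes was 80.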
